A study of Mus musculus with 14 samples.

Results

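Messenger RNA bound to Purkinje cell ribosomes was compared between Astn2 knockout (KO) and wild-type (WT) mice in 7 of the 14 libraries of the series. These are the translating ribosome affinity purification (TRAP) libraries, 4 from KO and 3 from WT cerebellum, chosen by their labels and not by any measured value. The other 7 libraries are input, the cerebellar homogenate set aside before the purification. They were used to say which genes are enriched on Purkinje ribosomes and whether a difference between genotypes differed between fractions. For some genes their input values are given beside those in TRAP.

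Purkinje cells are the inhibitory output neurons of the cerebellar cortex, with a large dendritic tree that receives parallel fibre and climbing fibre synapses. Astn2 encodes astrotactin 2, a membrane protein first studied in glial-guided neuronal migration and later in the trafficking of synaptic surface proteins. In TRAP a ribosomal protein fused to EGFP is expressed in 1 cell type, its ribosomes are pulled out of a tissue homogenate with antibodies to GFP, and the RNA they carry is sequenced.

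All mice, KO and WT alike, carried a bacTRAP transgene in which EGFP fused to ribosomal protein L10a is driven by Pcp2 regulatory sequence, so tagging is limited to the cells where that transgene is active. KO and WT animals were littermates, and cerebella were taken at postnatal day 21. The TRAP KO group had 2 female libraries (KO 1 and KO 2) and 2 male libraries (KO 3 and KO 4), and the TRAP WT group had 1 female library (WT 1) and 2 male libraries (WT 2 and WT 3). The labels do not say which part of Astn2 was deleted or whether each library came from 1 animal, so p-values measure the spread between these libraries.

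Depth ranged from 21409528 to 35726680 counts in the KO libraries and from 18799609 to 32900157 counts in WT. Levels are counts per 1000000 counts (CPM) scaled with TMM factors over the 7 TRAP libraries, and are not corrected for transcript length, so they compare libraries and not genes. The labelled sexes matched the Y-linked genes: Ddx3y was at 25.9 to 32.2 CPM in the 4 male libraries and at 0.0522 to 0.134 CPM in the 3 female ones. With the same 7 libraries and the same model, 4 genes differed between the sexes at an adjusted p under 0.05 (0.0283% of 14145 genes tested), all on the Y chromosome (Ddx3y, Eif2s3y, Uty and Kdm5d). The cell type label was checked on Purkinje markers, of which 29 of 30 were at least 2-fold enriched in TRAP over input in WT. Among all genes tested the share so enriched was 26.4%. One library stands apart from the others. WT 3 correlated with the other 6 libraries at a median Pearson r of 0.939 across 10040 genes, while each other library had a median of 0.976 to 0.986. KO 4 had the next lowest median, and for named genes and lists the value without WT 3 is given where its sign turns.

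Astn2 itself was measured first, since it checks the genotype labels. It had 34, 45, 36 and 24 counts in KO 1 to KO 4 and 1707, 2275 and 3527 counts in WT 1 to WT 3. As levels these are 1.01, 1.20, 1.62 and 0.818 CPM in KO and 89.1, 97.4 and 111 CPM in WT. No KO library came near a WT library. The log2 fold change, KO over WT, was -6.39 ± 0.25 (SE) with a 95% interval from -6.95 to -5.83, and edgeR's quasi-likelihood test gave an adjusted p (Benjamini-Hochberg, over all genes) of 3.46e-05. Without WT 3 it was -6.34.

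Trim32, a ubiquitin ligase gene of the tripartite motif family, lies inside Astn2 on the opposite strand. In RefSeq on GRCm38.p6, Astn2 spans chr4:65380803-66404537 on the minus strand and Trim32 spans chr4:65604986-65616240 on the plus strand. Trim32 falls within intron 16 of the 23-exon transcript Astn2-201 in the GENCODE annotation. The sequences below are the 250 bases before the first start that RefSeq's promoter table lists for these genes, the pair at the deleted locus, and for Pcp2 (chr8:3623369-3625547, minus strand), whose regulatory sequence drives the transgene. Capitals mark the GC box GGGCGG and the CCAAT box, each on either strand (CCGCCC and ATTGG).
Astn2: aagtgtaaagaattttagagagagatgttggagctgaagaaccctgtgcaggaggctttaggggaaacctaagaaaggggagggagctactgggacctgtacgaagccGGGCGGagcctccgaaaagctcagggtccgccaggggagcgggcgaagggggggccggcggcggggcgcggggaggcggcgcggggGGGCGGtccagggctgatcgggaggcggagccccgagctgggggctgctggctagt
Trim32: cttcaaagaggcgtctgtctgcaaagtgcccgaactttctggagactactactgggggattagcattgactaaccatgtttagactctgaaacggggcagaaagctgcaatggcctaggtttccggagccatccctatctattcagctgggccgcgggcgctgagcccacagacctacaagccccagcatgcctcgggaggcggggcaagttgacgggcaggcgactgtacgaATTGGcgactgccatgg
Pcp2: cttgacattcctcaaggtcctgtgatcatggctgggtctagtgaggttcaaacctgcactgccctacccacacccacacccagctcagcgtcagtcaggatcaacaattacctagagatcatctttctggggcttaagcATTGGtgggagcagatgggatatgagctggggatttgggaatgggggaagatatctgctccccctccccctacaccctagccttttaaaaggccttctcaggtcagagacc
The Astn2 window, chr4:66404484-66404733, holds 2 GC boxes and is 66.8% G or C; it precedes a transcript start that lies inside the gene's span, so 54 of its bases are within the span given above. The Trim32 window, chr4:65604736-65604985, holds 1 CCAAT box, as does the Pcp2 window, chr8:3625548-3625797, which is 52.8% G or C. Of 27025 RefSeq promoter windows of the same length, 32.9% hold a GC box and 34.5% a CCAAT box, so these matches are common and are given only to describe the windows.

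Trim32 was at 137, 139, 149 and 127 CPM in KO 1 to KO 4 and at 68.0, 66.0 and 82.7 CPM in WT 1 to WT 3. Every KO library was above every WT library, and the KO mean of 138 ± 8.99 CPM (SD, n = 4) stood against a WT mean of 72.2 ± 9.10 CPM (SD, n = 3). The log2 fold change was 0.94 ± 0.16 (SE) with an interval from 0.58 to 1.30, but edgeR adjusted its p over all genes to 1.00, so Trim32 was not called. It passed in 3 of 19 alternatives, the DESeq2 Wald test, limma voom with quality weights and 1 fit over all 14 libraries, and its adjusted p ranged from 0.000743 to 1.00 over them. In input it passed: the log2 fold change was 1.07 ± 0.10 (SE) and edgeR's adjusted p was 0.0296. Trim32 was not called in input without input KO 3, WT 1, WT 2 or WT 3, nor with a replicate block in place of sex. Whether counting used strand is not given in the sources used here, so reads of Trim32 and of Astn2 introns cannot be told apart. None of the other measured genes of the family passed. Astn1, the paralogue of Astn2, had a log2 fold change of -0.03 with an interval from -0.56 to 0.50, and 0.29 without WT 3, where it stood at 82.5 CPM against 41.0 to 55.2 CPM in the other 6 libraries. The Brinp genes, which encode related neural proteins with a perforin-like domain, had log2 fold changes of -0.17 (Brinp1), -0.33 (Brinp2) and 0.01 (Brinp3). Brinp2 was at 139 CPM in WT 3 against 53.5 to 70.4 CPM elsewhere, and stood at 0.16 without WT 3. Pappa and Tlr4 were too low in TRAP to be tested.

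**Figure D1:**
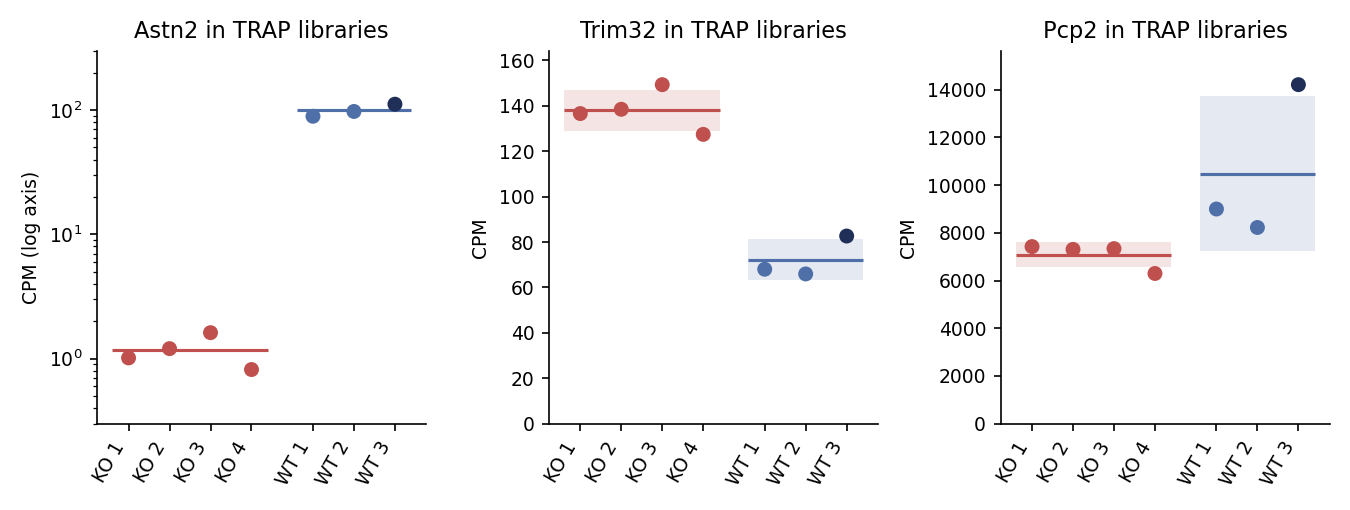
Levels of Astn2 (log axis), Trim32 and Pcp2 in CPM in each of the 7 TRAP libraries, KO in red and WT in blue with WT 3 darkest. Lines are group means and shaded bands, in the Trim32 and Pcp2 panels, are 1 SD; Astn2 is at 0.818 to 1.62 CPM in KO and 89.1 to 111 CPM in WT, Trim32 is higher in every KO library, and Pcp2 in WT 3 is at 14209 CPM against 8223 and 8997 CPM in the other WT libraries.

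Across all genes, Astn2 was the only gene of 14145 tested called by edgeR at an adjusted p under 0.05 (0.00707%). Before adjustment 212 genes had a p under 0.05 (1.5%), 95 higher in KO (0.672%) and 117 lower (0.827%). In 637 genes (4.5%) the KO and WT libraries did not overlap, with KO above in 280 (1.98%) and below in 357 (2.52%). Over all genes the log2 fold change had a median of 0.00 and a median size of 0.14, and 148 genes exceeded 1 in size, 96 of them genes under 1 CPM. The DESeq2 Wald test called 3 genes (0.0212%), adding Fcgr1 and Trim32. With limma voom and quality weights 4 genes were called (0.0283%), these and Ttc39aos1, and 9.86% had an unadjusted p under 0.05. Leaving out 1 WT library at a time brought in 1 further gene each, a different one each time: Ttr without WT 1, the gene with Entrez number 14980 without WT 2, and Ndufs5-ps without WT 3. WT 1 is the only female WT library, so with sex as a covariate the genotype difference without it rests on the male libraries. The number with an unadjusted p under 0.05 was 354, 1023 and 410 without WT 1, WT 2 and WT 3. Without WT 3 the shares were 0.014% called and 2.87% at an unadjusted p under 0.05. With both KO 4 and WT 3 left out Astn2 was again the only gene called (0.0071% of 14084), and 424 genes had an unadjusted p under 0.05 (3.01%).

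The genes with the smallest p among those whose libraries did not overlap were described by their values, since none but Astn2 was called; edgeR adjusted each p to 1.00. On the higher side after Trim32 was Cntnap5c, a gene of the contactin-associated protein family of neuronal adhesion proteins. It was at 8.65, 5.01, 5.53 and 7.60 CPM in KO and 3.19, 2.91 and 3.76 CPM in WT, a log2 fold change of 1.02 with an interval from 0.41 to 1.63. B2m, the light chain of MHC class I, was at 26.2, 29.1, 33.3 and 18.8 CPM in KO and 18.2, 14.01 and 11.5 CPM in WT, a log2 fold change of 0.86 with an interval from 0.33 to 1.38. In B2m the lowest KO and the highest WT library nearly met. Entrez 14980, which has no symbol in the table used, had a log2 fold change of 4.14, with 4.87 to 16.02 CPM in KO, 1.93 CPM in WT 2 and 0 counts in WT 1 and WT 3; this fitted value depends on the prior count.

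The other higher genes were Daam2, a formin-family gene of Wnt signalling (0.63), Gprasp1, which sorts G-protein-coupled receptors after endocytosis (0.50), Nr4a2, an orphan nuclear receptor (1.22), Prkcd, protein kinase C delta (0.70), Eomes, a transcription factor of unipolar brush cells (0.54), and Fgd3, a guanine nucleotide exchange factor (0.67), each as a log2 fold change. Of the higher genes, Cntnap5c and Fgd3 were TRAP-enriched in WT. The values of Prkcd were 112, 113, 111 and 154 CPM in KO and 92.9, 76.8 and 56.7 CPM in WT, so its 2 extreme libraries were KO 4 and WT 3. Without WT 3 its log2 fold change was 0.53.

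On the lower side was Fcgr1, a high-affinity immunoglobulin receptor gene of myeloid cells, microglia included, at 2.36, 4.44, 3.69 and 2.35 CPM in KO and 21.04, 5.70 and 6.89 CPM in WT. Its log2 fold change was -1.75 with an interval from -2.61 to -0.88, and WT 1 was its highest library. Without WT 1, where the male libraries alone give the genotype difference, the value was -1.06. The defining microglia genes Cx3cr1, P2ry12 and Tmem119 were at 0.136 to 1.72 CPM in all 7 libraries and had log2 fold changes of 0.02, 0.17 and -0.60. Over input, the WT TRAP libraries had a log2 ratio of 2.92 for Fcgr1, and of -2.19, -2.71 and -2.10 for these 3 genes.

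Ttc39aos1, annotated as an opposite-strand transcript of Ttc39a, was at 1.999, 1.39, 1.57 and 1.84 CPM in KO and 4.80, 3.17 and 6.48 CPM in WT, a log2 fold change of -1.50 with an interval from -2.19 to -0.81. All KO libraries were below all WT libraries, and the adjusted p was 0.0374 with quality weights, the lowest of its 19 alternatives, while edgeR gave 1.00. Alpk2, an alpha-kinase gene, had a log2 fold change of -1.06, with 4.89 to 6.67 CPM in KO and 13.4, 6.98 and 14.9 CPM in WT. Smaller differences were found in Gask1b, a Golgi-associated kinase gene (-0.49), Mir124a-1hg, the host transcript of a neuronal microRNA (-0.71), Bola3, which acts in mitochondrial iron-sulphur cluster assembly (-0.57), Gm19345 (-0.56), the zinc finger gene Zfp787 (-0.51) and Ccdc189 (-0.56). Of these 20 genes, 5, Astn2 and Trim32 included, passed the threshold in at least 1 of the 19 or 20 alternatives run for each.

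How large a change these libraries can bound was read from the 95% interval of each gene's log2 fold change; the intervals are per gene and are not adjusted for the number of genes. The whole interval lay within 2-fold of no difference in 10862 genes (76.8%) and within 1.5-fold in 5049 genes (35.7%). The median half-width was 0.52 on the log2 scale, a factor of 1.43. Widths differed with the level of the gene: of genes under 1 CPM 130 of 1631 lay within 2-fold, of those at 1 to 10 CPM 2793 of 4034, of those at 10 to 100 CPM 5971 of 6370, and of those over 100 CPM 1968 of 2110. These counts moved with the library left out: without WT 3 the median half-width was 0.44, with 11244 genes within 2-fold and 6745 within 1.5-fold, and without WT 1 it was 0.73, with 7441 and 704 genes. In the fit without WT 1, the only female WT library, the male libraries alone give the genotype difference. Without any 1 KO library the median half-width was 0.59 to 0.61.

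Genes enriched on Purkinje ribosomes were taken as those with an adjusted p under 0.05 and at least 2-fold higher levels in TRAP than in input in WT, 3741 of the genes tested (26.4%). Of these, 3095 lay within 2-fold and 1525 within 1.5-fold, and 0 passed the threshold, with 88 at an unadjusted p under 0.05 (2.35%, against 1.5% of all genes tested). Their median log2 fold change between genotypes was -0.09, against 0.00 for all genes and 0.08 for genes at least 2-fold depleted in TRAP. The depleted median was 0.04 without WT 3 and -0.05 without KO 3. The enrichment and the genotype contrast share the 3 TRAP WT libraries. Among the 3536 genes enriched in KO, where the shared libraries are the KO ones, the median was -0.06, and it was below 0 in all 20 settings for both sets, nearest to 0 in the KO set with library totals as the scaling, at -0.01. In bulk samples fewer tagged cells and less RNA per cell cannot be told apart.

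None of the 30 Purkinje cell genes passed the threshold, 25 lay within 2-fold and 11 within 1.5-fold, against 76.8% and 35.7% of all genes tested. Since widths differ with level, TRAP-enriched genes over 100 CPM are a closer comparison, with 92.7% within 2-fold and 48.4% within 1.5-fold. The median log2 fold change of the Purkinje cell genes was -0.04, with 11 above 0, and without WT 3 it was 0.10, with 20 above 0. The sign of this median was not stable: it was also above 0 without KO 3 (0.04), without both KO 4 and WT 3 (0.03), with library totals (0.01) and with voom without and with quality weights (0.02 in both). A total of 1 gene had an unadjusted p under 0.05, a level passed by 1.5% of all genes: Pcp2, which encodes a Purkinje cell regulator of Gi/o signalling. It was at 7423, 7305, 7337 and 6295 CPM in KO and at 8997, 8223 and 14209 CPM in WT. Every KO library was below every WT library, and WT 3 was far above the rest. The log2 fold change was -0.55 ± 0.22 (SE), the interval ran from -1.05 to -0.05, and edgeR's adjusted p was 1.00. Without WT 3 it was -0.28 with an interval from -0.57 to 0.01, and without KO 4 and WT 3 it was -0.24. The transgene is driven by Pcp2 regulatory sequence, and reads of the endogenous gene and of any Pcp2 sequence transcribed from the transgene were not separated here. Rpl10a, the ribosomal protein gene used for the tag and named here outside the naming rule, had a log2 fold change of 0.00 with an interval from -0.41 to 0.42.

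Genes of the IP3 cascade, which releases calcium from internal stores in these cells, were bounded to different degrees. Car8, which lowers the affinity of the IP3 receptor for its ligand, was at 16187, 16792, 15282 and 19443 CPM in KO and 17755, 16027 and 18770 CPM in WT. The groups overlapped, and the Car8 interval, as a ratio of KO to WT, ran from 0.757 to 1.24. Itpr1, the IP3 receptor, was at 2586, 2276, 2317 and 3133 CPM in KO and 1929, 2183 and 5238 CPM in WT. Its log2 fold change was -0.14 with an interval from -0.88 to 0.59, and without WT 3 it was 0.33 with one from -0.04 to 0.69. The sign thus rested on WT 3, as it did for Plcb4, a phospholipase C, at -0.15 with all libraries and 0.56 without it. The IP3 kinase gene Itpka had a log2 fold change of -0.03 (0.05 without WT 3), the phosphatase gene Inpp5a -0.15, the scaffold gene Homer3 -0.18 and Rgs8, a regulator of G-protein signalling, -0.03 (0.09 without WT 3).

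Calb1, encoding the calcium buffer calbindin, was at 5282, 4785, 4824 and 6408 CPM in KO and 4796, 4965 and 4429 CPM in WT, a log2 fold change of 0.18 with an interval from -0.19 to 0.56. Pcp4, a calmodulin regulator, had -0.07 with an interval from -0.51 to 0.36. Pvalb, encoding parvalbumin, was at 13123, 9318, 9672 and 9308 CPM in KO and 10408, 16653 and 3776 CPM in WT. The WT libraries of Pvalb thus lay on both sides of KO, WT 3 lowest and WT 2 highest, and the interval of the log2 fold change ran from -0.99 to 0.95. Gng13, a G-protein gamma subunit, showed the same order, with 2481 to 3097 CPM in KO and 3370, 4267 and 1087 CPM in WT; its log2 fold change was -0.07, and -0.43 with an unadjusted p of 0.0236 without WT 3.

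Slc1a6, the Purkinje cell glutamate transporter, had a log2 fold change of 0.23 with an interval from -0.25 to 0.71. The genes for GABA synthesis and vesicular loading were Gad1, at 0.17 with an interval from -0.23 to 0.57, and Slc32a1, at -0.36 with an interval from -1.11 to 0.40; Slc32a1 was at 414 CPM in WT 3 and at 151 to 211 CPM in the other 6 libraries, and its value without WT 3 was 0.16.

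Among the transcription factor genes of the list, Rora, needed for Purkinje cell survival, had a log2 fold change of 0.09, Foxp2 0.17, Skor2 0.17, Lhx1 0.08 and Lhx5 0.14, and all 5 intervals lay within 2-fold. Without WT 3 Skor2 had 0.54 with an unadjusted p of 0.0241 and Lhx1 0.61, while Foxp2 and Lhx5 lay on the other side of 0 at -0.07 and -0.08. Cacna1g, the T-type calcium channel, stood at -0.10 with all libraries and at 0.39 without WT 3, where its unadjusted p was 0.0488, and Arhgef33, a guanine nucleotide exchange factor gene, stood at -0.25 and 0.21. Aldoc, the zebrin antigen of Purkinje cell stripes, stood at 0.22, Kitl, the ligand of the Kit receptor, at -0.13, Dner, a Notch ligand, at -0.01 (0.16 without WT 3) and Ppp1r17, a phosphatase inhibitor, at -0.04. Over the alternatives 21 of the 30 genes changed sign at least once and 0 passed the threshold in any.

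**Figure D2:**
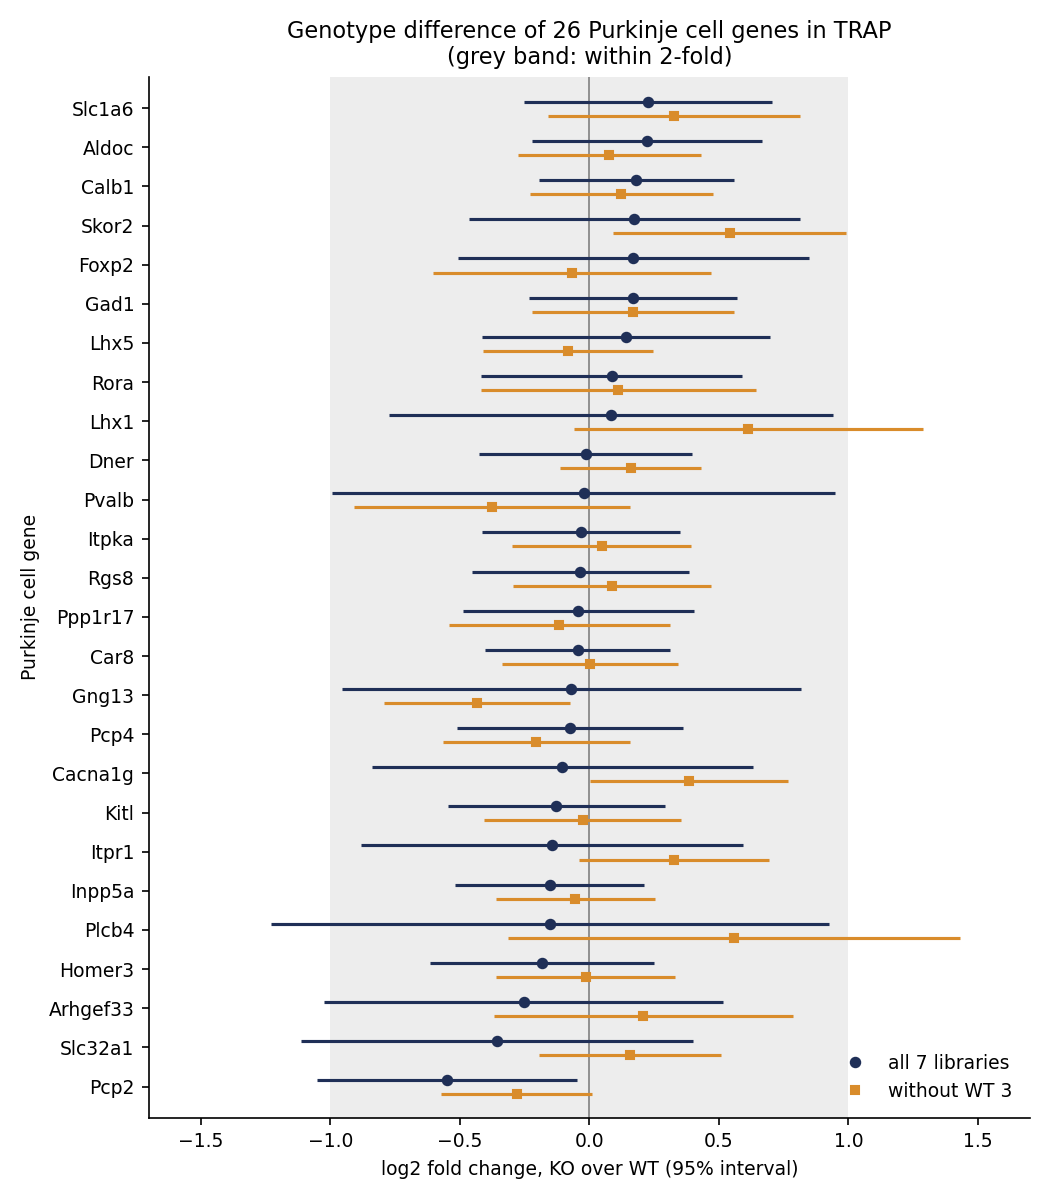
Log2 fold change, KO over WT, of 26 of the 30 Purkinje cell genes with 95% intervals, from all 7 libraries (dark circles) and without WT 3 (orange squares); the grey band is within 2-fold. With all libraries 22 of the intervals shown lie inside the band, and Plcb4, Lhx1, Itpr1 and Cacna1g are among those whose points shift most to the right without WT 3.

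Other gene groups of Purkinje cell synapses and excitability were described in the same way. Among 17 genes for synaptic partners of ASTN2 and related proteins, 0 had an unadjusted p under 0.05, 14 lay within 2-fold, and the median was 0.08. Nlgn2, the neuroligin of inhibitory synapses, had a log2 fold change of -0.16 with an interval from -0.62 to 0.30, and Slc12a5, the neuronal chloride exporter, -0.37 with one from -1.05 to 0.31, with 797 CPM in WT 3 against 307 to 394 CPM elsewhere and a value of 0.04 without WT 3. Olfm1, a secreted synaptic protein gene, had 0.01 with an interval from -0.68 to 0.69, and -0.22 without WT 3. Of 26 tested genes of excitatory synapses 21 lay within 2-fold and of 19 tested genes of inhibitory synapses 14, with medians of -0.03 and -0.11, which were 0.15 and 0.15 without WT 3. Among the highest of these genes by CPM, Shank1, a postsynaptic scaffold, had 0.36, Nptn, a neuroplastin adhesion protein, -0.21 and Gabbr1, a GABA-B receptor subunit, -0.08, which was 0.22 without WT 3.

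Of 36 ion channel and pump genes 32 lay within 2-fold, the median was -0.12, and 1 had an unadjusted p under 0.05, against 1.5% of all genes. The median was 0.03 without WT 3 and 0.06 without KO 4 and WT 3. The gene was Kcnmb4, an accessory subunit of the large-conductance calcium-activated potassium channel. It was at 324, 236, 245 and 194 CPM in KO and 291, 411 and 394 CPM in WT, a log2 fold change of -0.56 with an interval from -1.08 to -0.04, and edgeR's adjusted p was 1.00. KO 1 overlapped the WT range, and without WT 3 the unadjusted p was 0.0567.

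Endocytosis and recycling genes had the narrowest intervals of the larger groups: 26 of 28 lay within 2-fold and 18 within 1.5-fold, with a median half-width of 0.40 against 0.52 for all genes. It was 0.43 both for genes at 10 to 100 CPM and for genes over 100 CPM, so 0.40 is near the width at those levels. The endocytosis genes had a median log2 fold change of 0.07. Ap2m1, a subunit of the clathrin adaptor, had 0.17 with an interval from -0.21 to 0.56, Dnm1, dynamin of synaptic vesicles, 0.02, and Rab7, of late endosomes, -0.31 with 968 CPM in WT 3 and 528 to 643 CPM elsewhere. Of 26 genes of dendrite and Purkinje development 23 lay within 2-fold, with a median of 0.08; Mtss1, a regulator of membrane and actin, had 0.19 and Camk2b, a calcium-dependent kinase gene, 0.08, which was -0.01 without WT 3. Among 18 genes of cell stress 15 lay within 2-fold, with a median of 0.01, and -0.10 without WT 3; the chaperone Hspa5 had 0.07 and the stress factor Atf4 -0.03. The 6 zebrin-positive stripe genes had a median of 0.22 and the 4 zebrin-negative ones -0.05, which was 0.08 without WT 3, and in none of these groups did a gene have an unadjusted p under 0.05.

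The genes most enriched on Purkinje ribosomes gave the same kind of bounds. Of the 20 with the highest ratio of TRAP to input in WT 16 lay within 2-fold, and their median log2 fold change between genotypes was -0.13. Mdfi, an inhibitor of myogenic factors, was at 305, 360, 381 and 290 CPM in KO and 492, 429 and 368 CPM in WT, a log2 fold change of -0.38 with an interval from -0.78 to 0.02. Cck, the cholecystokinin gene, had -0.53 with an interval from -1.22 to 0.16, and Gchfr, which controls the first enzyme of tetrahydrobiopterin synthesis, 0.38 with one from -0.09 to 0.84. In Iltifb the value of -0.76 rested on WT 3, at 889 CPM against 263 to 375 CPM in the other 6 libraries, and was -0.24 without it; this gene has a near-identical copy, so its counts are uncertain.

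Markers of other cerebellar cells were measured as carry-over beside these groups. The granule cell list, summed, was at 816 to 1548 CPM in KO and 916 to 1464 CPM in WT, and the astroglia list at 994 to 1232 and 942 to 1368 CPM. Hopx alone made up 674 of the 1103 CPM of the astroglia list in KO 1, and was at 193 to 230 CPM in input. Of the 14 astroglia genes, 1 was TRAP-enriched in WT, so this sum does not measure carry-over alone. Oligodendrocyte genes summed to 854 to 1826 CPM in KO and 896 to 1582 CPM in WT. In each of these lists KO 4 and WT 3 were the 2 lowest libraries, and 0 genes had an unadjusted p under 0.05. Among 15 tested interneuron genes, 2 did, Prkcd and Eomes, neither with overlapping groups, against 1.5% of all genes at such a p and 4.5% without overlap. The summed list was at 234 to 254 CPM in KO and 147 to 221 CPM in WT, of which Prkcd alone made up 111 to 154 CPM and 56.7 to 92.9 CPM. Over input, the WT TRAP libraries had a log2 ratio of 0.41 for Prkcd and -1.73 for Eomes. Prkcd was thus not depleted in TRAP, and which cells its reads came from was not tested.

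Choroid plexus genes separated the groups through few libraries. Ttr, the transthyretin gene of choroid plexus epithelium, was at 1.40, 1.20, 1.44 and 0.886 CPM in KO and 1.62, 73.8 and 50.5 CPM in WT. WT 1 was thus at the level of KO, and the log2 fold change was -4.14 with an interval from -6.67 to -1.60. Kl had -1.15, and 2 of the 4 choroid plexus genes tested, Ttr and Kl, had an unadjusted p under 0.05, against 1.5% of all genes. Otx2, a homeobox transcription factor gene, had 0.03 with overlapping groups, and -0.30 without WT 3. The other 8 were too low to be tested; Folr1, one of them, was at 0.814 and 0.443 CPM in WT 2 and WT 3 and at 0 to 0.0450 CPM in the other 5 libraries. In input Ttr was at 3.53, 1398 and 1.40 CPM in KO and 5.51, 472, 331 and 1.06 CPM in WT. The summed list was at 68.5 to 83.2 CPM in KO and 90.6 to 158 CPM in WT, of which Clic6 made up 62.6 to 102 CPM; Clic6 was TRAP-enriched in WT and had a log2 fold change of -0.29. The part of choroid plexus carry-over in the genotype comparison was not tested.

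Blood and activity genes varied widely among the libraries of each group. Hbb-bs, a haemoglobin gene, was at 234, 63.2, 42.1 and 30.5 CPM in KO and 124, 766 and 286 CPM in WT, a log2 fold change of -2.61 with an interval from -5.01 to -0.22. KO 1 lay above WT 1. The immediate early genes Fos, at 6.77, 22.6, 31.5 and 14.1 CPM in KO and 3.76, 8.35 and 13.0 CPM in WT, and Nr4a1, at 3.37, 13.0, 13.4 and 6.75 CPM in KO and 2.40, 3.47 and 2.43 CPM in WT, had log2 fold changes of 1.40 and 1.77. Both had overlapping groups and an unadjusted p under 0.05, as 2 of the 10 genes of that list, against 1.5% of all genes, and edgeR adjusted both to 1.00.

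**Figure D3:**
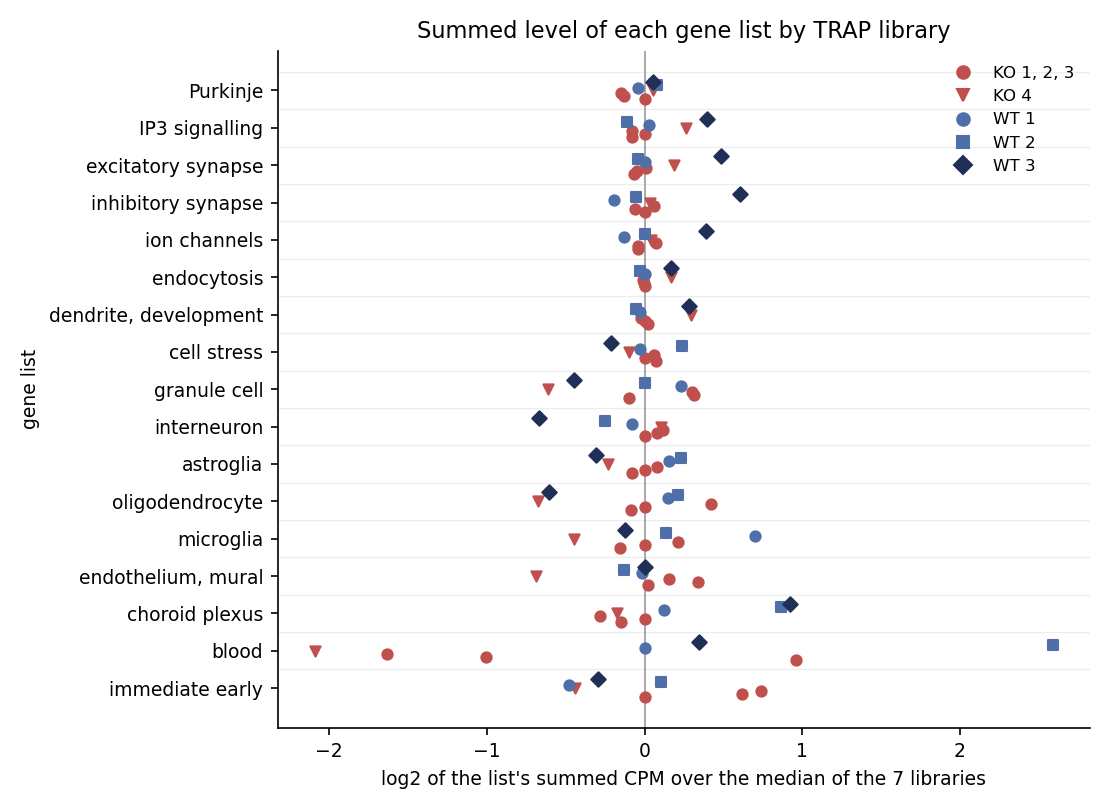
Summed CPM of each gene list in each TRAP library, as log2 of the ratio to the median of the 7 libraries, with KO in red and WT in blue. WT 3 (dark diamonds) is highest for the synapse and ion channel lists and, with KO 4 (red triangles), lowest for granule cell, astroglia and oligodendrocyte genes; WT 2 (squares) is highest for blood, at 2073 CPM.

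Agreement between libraries was measured on log2(CPM + 1) over the 10040 genes with a mean of at least 5 CPM. Pairs without WT 3 had a Pearson r across genes of 0.962 to 0.994, and the 6 pairs with WT 3 had 0.916 to 0.948. KO 2 and KO 3, a female and a male library, were the closest pair at 0.994, and KO 2 and WT 1, of different genotypes, were at 0.993. The 6 pairs within KO, at 0.976 to 0.994, covered much the same range as the 8 pairs of a KO library with WT 1 or WT 2, at 0.962 to 0.993. Genes are not independent replicates, and these values describe the libraries only.

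WT 3 was also farthest in single genes. In WT 3, 806 of the 10040 genes lay more than 2-fold from the median of the other 6 libraries, against 110 genes in WT 2, 102 in KO 4 and 21 to 34 in the other 4. WT 3 was the highest or the lowest of the 7 libraries in 65.8% of genes, WT 2 in 42.7% and KO 4 in 34.9%, so WT 2 came next in these measures and KO 4 by correlation. Quality weights fitted by limma, which are lower for noisier libraries, were 0.146 for WT 3, 0.516 for KO 4, 0.703 for WT 2, 0.838 for KO 1, 1.16 for KO 3, 3.73 for WT 1 and 5.20 for KO 2. The first principal component held 58.8% of the variance and set WT 3 apart, at 50.1 against -22.0 to 5.75 in the others. The second, with 17.1%, ran from KO 4 at -23.6 to WT 2 at 16.8. Neither component separated KO from WT.

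**Figure D4:**
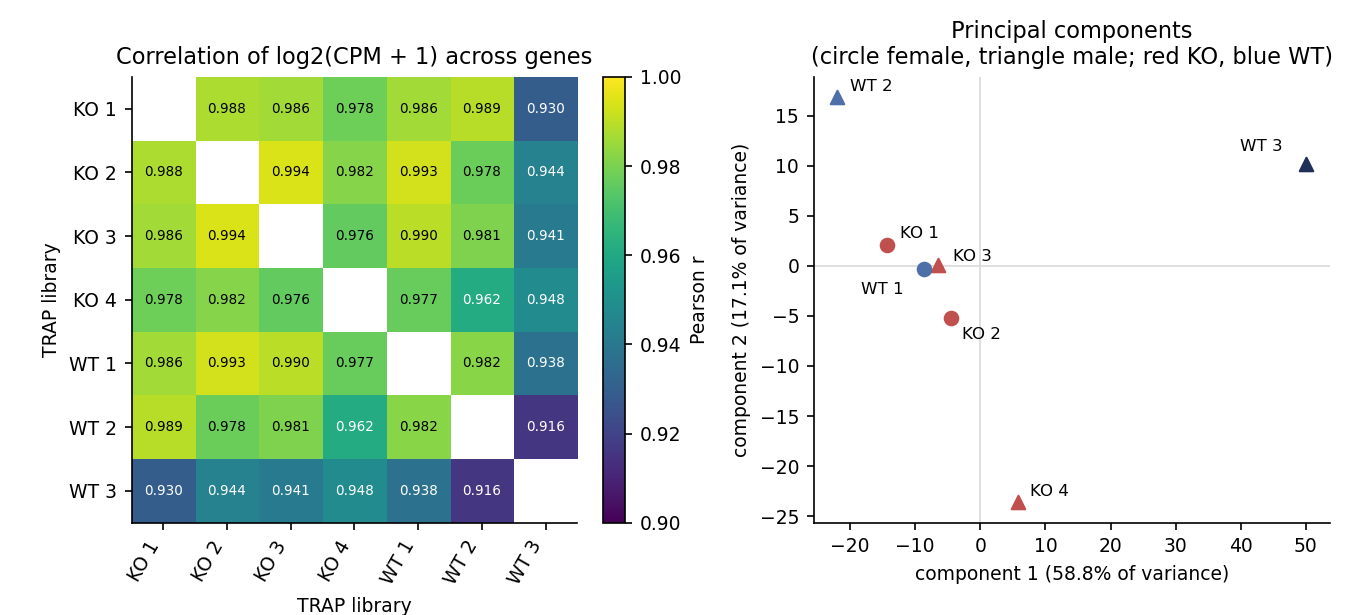
Left, Pearson r of log2(CPM + 1) across 10040 genes for each pair of the 7 TRAP libraries. Right, scores of the libraries on the first 2 principal components, which hold 58.8% and 17.1% of the variance: WT 3 lies alone at the right, KO 4 and WT 2 lie at the ends of the second component, and the other 4 libraries of both genotypes lie together.

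Deviations of the 3 outer libraries varied with transcript length. Among the 1971 shortest genes (median 1500 bases), the median deviation from the mean of the 7 libraries was -0.12 on the log2 scale in WT 3, -0.05 in KO 4 and 0.17 in WT 2. Among the 1972 longest (median 7050 bases) it was 0.10 in WT 3, 0.12 in KO 4 and -0.13 in WT 2, so WT 2 leaned the opposite way. Across 9858 genes the correlation of the WT 3 deviation with log2 length was 0.257, and with GC content it was -0.03. The loadings of the second component had a correlation of -0.29 with log2 length and of 0.17 with GC content. In KO 4 the median deviation was 0.12 in the 1971 genes of lowest GC content and -0.07 in the 1972 of highest. The part of transcript length or GC content in the genotype comparison was not tested.

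**Figure D5:**
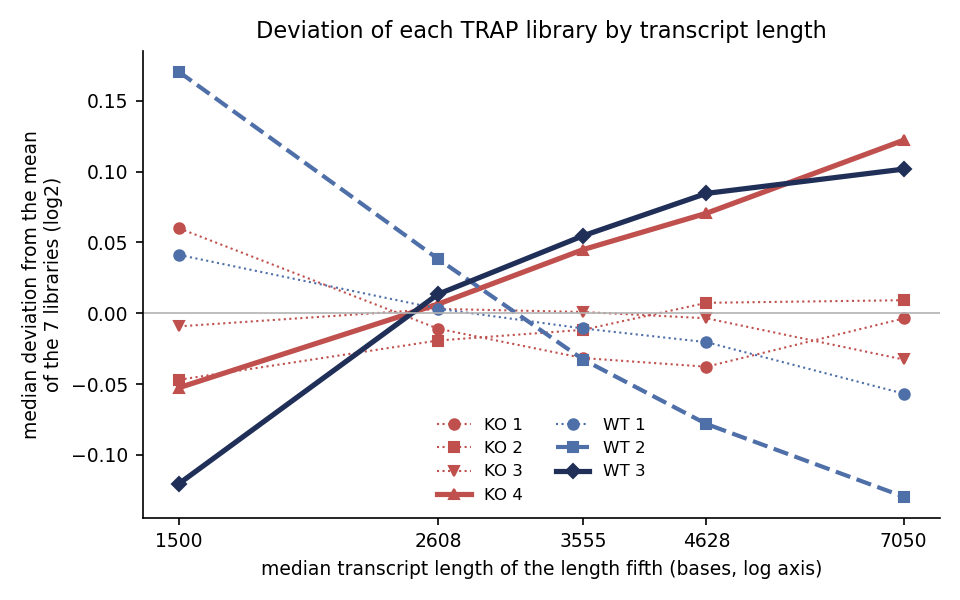
Median deviation of each TRAP library from the mean of the 7 (log2) in 5 groups of genes by transcript length, placed at the median length of each group on a log axis. WT 3 and KO 4 rise from -0.12 and -0.05 in the shortest group to 0.10 and 0.12 in the longest, WT 2 runs from 0.17 down to -0.13, and the other 4 libraries stay within 0.06 of 0.

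Single genes of WT 3 went far beyond this trend. Zbtb18, a transcriptional repressor of neuronal development, was at 1192 CPM in WT 3 and at 163 to 235 CPM in the other 6 libraries. Adnp, a chromatin regulator, was at 40.6 CPM in WT 3 and 9.14 and 3.13 CPM in WT 1 and WT 2, and at 9.49 to 37.1 CPM in KO, highest in KO 4. Uhmk1, a kinase gene, was at 104 CPM in WT 3 and 96.8 CPM in KO 4, against 9.21 to 44.2 CPM in the rest. In these 2 genes, as in Mgat5, Pcdhga2, Megf9, Nptxr and Gm44504, WT 3 was the highest, KO 4 the next highest and WT 2 the lowest of the 7 libraries. D830031N03Rik had KO 4 highest and WT 3 next, and Ddx3y, which is Y-linked, was compared with a WT mean that holds the female WT 1 at 0.0522 CPM.

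Genes low in WT 3 included Atp5e, a subunit of mitochondrial ATP synthase, at 39.2 CPM against 333 to 574 CPM in the other 6 libraries. Gm38667, a predicted gene, was at 6.13 CPM against 152 to 598 CPM. Nfix, a nuclear factor I gene, was at 12.7 CPM against 59.6 to 107 CPM. Upf3b, of nonsense-mediated decay, was at 2.72 CPM against 17.0 to 40.5 CPM, and Syndig1l at 1.07 CPM against 9.61 to 20.2 CPM. In input Syndig1l was at 34.4 CPM in WT 3 and 32.0 CPM in WT 4, against 71.7 to 95.7 CPM in the other input libraries. Nfix in input WT 3 was at 609 CPM against 617 to 727 CPM. Atp5e, Gm38667 and Upf3b in input WT 3 lay within the range of the other input libraries. Ndufs5-ps, a pseudogene of a complex I subunit, was at 0.253 CPM in WT 3, 175 and 309 CPM in WT 1 and WT 2 and 11.3 to 25.3 CPM in KO. The low value in WT 3 was also seen in input, at 2.76 CPM, against 52.1, 50.5 and 95.8 CPM in input WT 1, WT 2 and WT 4. Input KO was at 2.64 to 3.14 CPM. In TRAP without WT 3 the log2 fold change of Ndufs5-ps was -3.96, and it was called. As a copy of another gene, it has uncertain counts, like Rpl31-ps12 and Rpl14-ps1 on the same list. F2r and Brms1 varied as much among KO libraries, from 7.63 to 73.8 CPM and from 0 to 24.2 CPM. F2r was at 2.29 CPM in input WT 3 and 2.23 CPM in input WT 4, against 6.49 to 15.3 CPM in the other input libraries. By group, the median difference of WT 3 from the other WT libraries, on log2(CPM + 1), was 0.60 over 22 excitatory synapse genes, 0.56 over 17 inhibitory synapse genes and 0.36 over 30 Purkinje genes, against 0.05 over all 10040 genes. It was -0.50 over 13 granule cell genes, -0.50 over 14 astroglia genes and -0.52 over 12 oligodendrocyte genes.

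Whether the genotype difference itself differed between Purkinje ribosomes and whole cerebellum was tested by the interaction over 16042 genes. In input, 3 of 15997 genes passed (0.0188%), Astn2, Trim32 and Zfhx2os, with 2198 at an unadjusted p under 0.05 (13.7%). The interaction gave 0 genes (0.0%) in edgeR and 430 at an unadjusted p under 0.05 (2.68%), and the DESeq2 Wald test gave 1, Pcdha6. B2m had the log2 fold change of 0.86 in TRAP and -0.29 in input, an interaction of 1.15 ± 0.26 (SE), which edgeR adjusted to a p of 0.999. For Pcp2 the values were -0.55 in TRAP and -0.14 in input, for Kcnmb4 -0.56 and -0.02, and for Fcgr1 -1.75 and -1.32. Their interactions of -0.47, -0.59 and -0.37 were each adjusted by edgeR to a p of 0.999.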

How the data were processed

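The deposited values are whole-number counts per gene and library, with NCBI Entrez numbers as row names; per the submitters' processing notes Salmon 0.8.2 was used and the genome build was mm10. The annotation and strand setting are not given in the sources used here. Symbols came from RefSeq on GRCm38.p6 (24045 of 24100 genes matched), and transcript length and GC content from the longest GENCODE M21 transcript.

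Genotype was tested in the 7 TRAP libraries with edgeR 4.0.16 in R 4.3.3 (quasi-likelihood test, two-sided, TMM factors, filterByExpr, sex as covariate, Benjamini-Hochberg adjustment at 0.05). Intervals of 95% used the t quantile at the fit's degrees of freedom and an SE equal to the absolute log2 fold change over the root of F; 1 gene had no interval. TRAP against input and the interaction used all 14 libraries. Simulated counts were used to test the scripts. To look for duplicate deposits of a library, replicate pairs within a group were compared; their chi-square per degree of freedom was 8.63 to 267, and none was counted as 1 sample with another.

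Alternatives were DESeq2 1.42.0 size factors and Wald test, library totals, 2 filters, limma 3.58.1 voom with and without quality weights, no covariate, a replicate block, males only, all 14 libraries, adjustment over TRAP-enriched genes only, an adjusted p under 0.1 and each library left out; leaving out both KO 4 and WT 3 was chosen after seeing the data. Of 350 genes in 24 lists, 11 were not matched, among them all 8 mitochondrial genes. The gene lists, the members and the tests were chosen with earlier results of these data known. Genes named are the Astn2 locus and family, genes called by edgeR, DESeq2 or quality weights, the 10 per direction with the smallest p among genes of at least 5 CPM whose groups do not overlap, the Purkinje list, of each other list those with an unadjusted p under 0.05 and the 3 highest, the 20 most TRAP-enriched of at least 20 CPM, the 10 per direction farthest in WT 3, and sex genes. Some genes that this rule names are not reported here; they remain in the counts and medians of their lists.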

Additional observations from a re-analysis of the deposited data

Results flagged for a closer look

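Of 55 named values tested for a far library among the 4 TRAP KO libraries, 4 had one; chance marks about 1 in 20 such groups. The measure is the gap to the nearest library divided by the whole range, on log2(CPM + 1). Prkcd in KO 4 was at 154 CPM against 111 to 113 CPM in the other KO libraries, a gap of 0.951 of the range. Fgd3 in KO 4 was at 61.6 CPM against 42.1 to 43.5 CPM, a gap of 0.916. Pcp2 in KO 4 was at 6295 CPM against 7305 to 7423 CPM, a gap of 0.903. Pvalb in KO 1 was at 13123 CPM against 9308 to 9672 CPM, a gap of 0.888.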

How the results depend on the processing

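Astn2 was called in all 19 alternatives that tested it, with log2 fold changes from -6.61 to -6.16; it is not among the TRAP-enriched genes, so adjusting over those alone gave 0 calls, with 88 genes at an unadjusted p under 0.05. In TRAP the number called, 1 in the fit reported, was 3 by DESeq2's Wald test, 4 by voom under quality weights, 2 among males, 2 with all 14 libraries in 1 fit and 1 to 2 with each library left out. In input, 3 in the fit reported, it was 292 by DESeq2's Wald test, 23 with no filter on low counts, 5 when scaled by DESeq2 size factors, 64 among males, 8 by voom under quality weights, 0 over TRAP-enriched genes, 15 at an adjusted p under 0.1 and 1 to 158 with each library left out, the highest without input KO replicate 2. The interaction gave 1 gene with the DESeq2 Wald test and 0 in every other alternative. For each of these the cause was not tested. In TRAP the fit among males and the fit without WT 1 take the genotype difference from the same male libraries. Fitting a replicate block instead of sex called 1 gene in TRAP, with 123 at an unadjusted p under 0.05, and 1 in input. Same-numbered KO and WT TRAP libraries had correlations of deviations of -0.038, -0.240 and -0.076. These few values cannot say whether the numbers pair the libraries. For TRAP and input libraries of the same number the correlations were 0.228918, 0.300197 and -0.150022 in KO. In WT they were 0.363464, 0.280079 and 0.112349. Whether TRAP and input libraries of the same number share an animal was not tested. The interaction reported had no block for number, and with genotype and number as a block it gave 0 genes. The number of intervals within 2-fold was 10862 in the fit reported, 7441 to 11244 with each library left out (lowest without WT 1) and 12723 with quality weights; within 1.5-fold these were 5049, 704 to 6745 and 10061. Of genes called between TRAP and input in WT, 5937 were higher and 6181 lower in TRAP, and 3135 and 9801 with library totals. In the shallowest library 3 counts are 0.160 CPM, and genes under 1 CPM were bounded within 2-fold in 7.97% of cases. Intervals cover the spread between these libraries only.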
